A study of Mus musculus with 2 samples.

Results

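Replication-dependent histone genes encode the bulk of the histones that package newly copied DNA. The 67 genes described here are the protein-coding genes of the GENCODE M21 basic annotation whose symbols begin with Hist1h, Hist2h, Hist3h or Hist4h, out of 21938 protein-coding genes in all. They comprise 6 H1, 18 H2A, 18 H2B, 12 H3 and 13 H4 genes. Most lie in the Hist1 cluster on mouse chromosome 13, which was treated as 2 blocks because a long stretch without members separates them. The proximal block (mm10, chr13:21715763-22043676) holds 23 of the genes and the distal block (chr13:23531050-23934851) holds 31. The Hist2 cluster on chromosome 3 (chr3:96219865-96270132) holds 10, Hist3 on chromosome 11 holds 2, and Hist4h4 stands alone on chromosome 6.

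The chromatin was that of hindbrain from B6NCrl mouse embryos at embryonic day 14.5, with males and females pooled. DNase-seq was used, in which the nuclease DNase I cuts open chromatin and the cut sites are sequenced. The study has 1 group of 2 biological replicates, labelled as separate tissue samples that carry the same donor identifier, and it has no treatment, mutation or other stage. Each replicate has its own peaks, 150 bp wide and scored, and its own hotspots, which are broader stretches with more cuts than their surroundings and carry a q-value.

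The core histones H2A, H2B, H3 and H4 form the protein spool of the nucleosome, and the linker histone H1 binds where DNA enters and leaves it. The genes of this family are small, mostly lack introns and are transcribed mainly in S phase, under the coactivator NPAT in a nuclear structure called the histone locus body. Their mRNAs end in a conserved stem-loop bound by SLBP in place of a poly(A) tail. In the embryonic hindbrain, dividing progenitors line the ventricle and the rhombic lip while their postmitotic progeny differentiate outside these zones.

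Replicate 1 held 263679 peaks and replicate 2 held 148804, with median scores of 47 and 30, and read depth is unknown, so scores are given beside their percentile within the library. A peak of replicate 1 that overlapped a peak of replicate 2 was called shared. A shared peak within 1 kb of a transcription start site was found for 64.6% of all protein-coding genes. Of the tissue markers examined, 13 of 14 genes of the hindbrain and its cells had one, all but Hoxa3. All 4 proliferation markers had one (Mki67, Pcna, Mcm2 and Top2a), none of 3 liver markers did, and 1 of 3 germ-line markers did (Dazl). The strongest promoter peaks of the hindbrain markers stood at median percentiles of 95.2 in replicate 1 and 86.0 in replicate 2. Over all protein-coding genes with a promoter peak the medians were 96.8 and 94.8. Whole tissue was used, so fewer cells with an open site and a less open site in each cell cannot be told apart.

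Most of the histone genes had open promoters in both libraries. Of the 67 genes, 55 (82.1%) had a shared peak with its midpoint within 1 kb of a start site, against 64.6% of all protein-coding genes. The call was made for 55 genes in replicate 1, where it was made for 69.9% of all protein-coding genes, and for 56 genes in replicate 2, where the figure was 65.7%. Both libraries gave the same call for 66 histone genes, and did so for 94.5% of all protein-coding genes. The exception was Hist2h3c2, an H3 gene with a replicate 2 peak that scored 26 at 737 bp past its start and no replicate 1 peak. By class, 4 of 6 H1, 15 of 18 H2A, 15 of 18 H2B, 10 of 12 H3 and 11 of 13 H4 genes were called.

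The peaks were strong in rank, but those of other open promoters were too. The strongest promoter peak of a histone gene stood at a median percentile of 97.5 in replicate 1 and 95.1 in replicate 2. Over all protein-coding genes with a promoter peak the medians were 96.8 and 94.8. Peaks at or above the 90th percentile of scores in both libraries lay at 48 of the 67 histone genes (71.6%), against 44.3% of all protein-coding genes. Replicate 1 gave the higher score at each of the 55 genes called in both libraries. The order of the scores was alike, with a Spearman correlation of 0.722 over these 55 genes, a description only, since neighbouring genes share peaks.

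**Figure D1:**
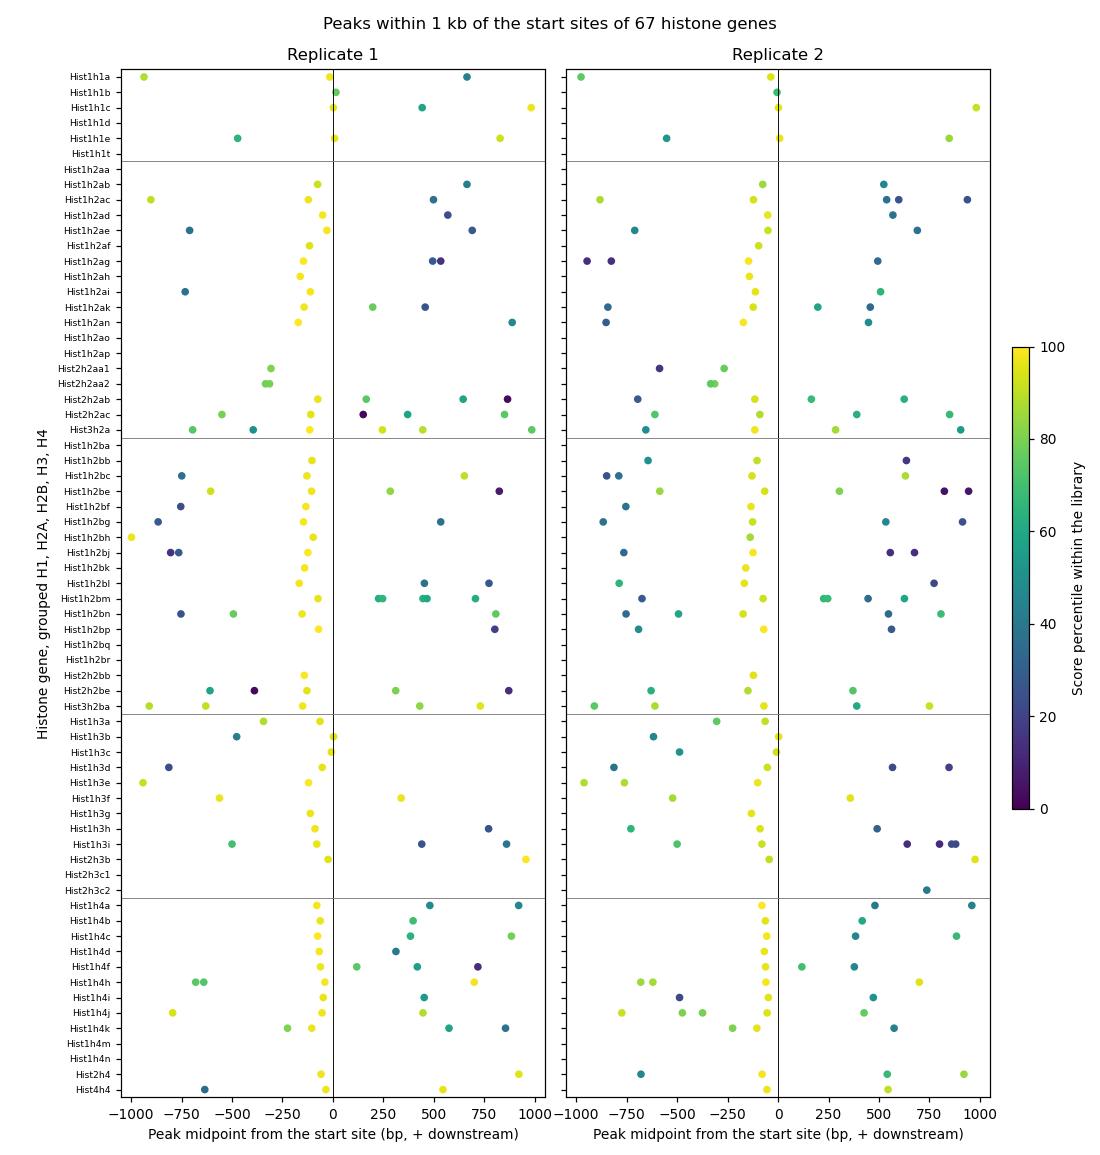
Midpoints of all peaks within 1 kb of the start sites of the 67 histone genes, by gene (vertical) and by distance from the start in bp (horizontal, positive downstream), in replicate 1 (left) and replicate 2 (right). Colour gives the score percentile within the library. The strongest peaks of most called genes lie just upstream of the start in both libraries, and 11 genes have no peak in either. Exceptions include the called H1 genes, with shared peaks at the start, and Hist1h3f and Hist2h3b, whose strongest peaks lie downstream.

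The plot of peak midpoints by gene shows 1 strong peak near the start of most called genes and weaker peaks on either side. The 100 distinct shared peaks at the histone genes are fewer than the sum over genes, because 27 of them lie within 1 kb of more than 1 histone gene.

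H4 genes, which encode the most conserved core histone, had the most uniform promoter peaks. The strongest peaks of the 11 called H4 genes scored 127 to 146 in replicate 1 and 95 to 120 in replicate 2. Hist1h4c had the highest replicate 1 score of any histone gene, 146, and scored 113 in replicate 2. Hist1h4a scored 138 and 120, the highest replicate 2 score of any histone gene. At the low end, Hist1h4i scored 127 and 98, and Hist1h4j 132 and 95. The replicate 2 median over H4 genes was 108, against 95 over all protein-coding genes with a promoter peak, and in replicate 1 it was 133, against 128.

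H3 genes had strongest peaks of 116 to 143 in replicate 1, with a median of 128.5, against 128 over all protein-coding genes with a promoter peak. In replicate 2 the median over the 11 H3 genes with a peak was 93, against 95. The strongest peak of Hist2h3b, 141 and 97, lies nearer to the start of Hist2h2bb. The peak at the start of Hist2h3b itself scored 118 and 76. Hist1h3e led with 143 in replicate 1 and 107 in replicate 2. Hist1h3b had 116 and 100, and Hist1h3a 119 and 79. The 10 called H3 genes overlapped the H4 genes in score in both libraries.

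H2A and H2B genes pair up to form the dimers of the nucleosome, and many of them share a promoter region. Scores ran from 76 to 145 in replicate 1 and from 50 to 117 in replicate 2 for the 15 called H2A genes. For the 15 called H2B genes they ran from 121 to 145 and from 66 to 117. The top peak of both classes, 145 and 117, lies between Hist1h2an and Hist1h2bp. Hist3h2a had the same replicate 1 score, 145, and 109 in replicate 2. Hist2h2aa1 (78 and 50) and Hist2h2aa2 (76 and 53), near-identical copies of an H2A gene, were the lowest of the called H2A genes in both libraries, below Hist1h2ab with 103 and 64. The medians were 134 and 88 for H2A and 136 and 88 for H2B, so that in replicate 2 both stood below the 95 of all protein-coding genes with a promoter peak and in replicate 1 both stood above the corresponding 128.

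H1 genes, which encode the linker histones, were the class with the fewest members. Hist1h1a scored 134 in replicate 1 and 94 in replicate 2. Hist1h1e scored 126 and 105, and Hist1h1c 126 and 101 at its start, with another peak of 133 and 81 at 982 bp downstream. Hist1h1b was the weakest called histone gene, with 71 and 41, at percentiles 75.9 and 68.6. A stronger peak, 137 and 100, lies at chr13:21779396-21779545, at 1155 bp past the Hist1h1b start and beyond the end of the gene.

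**Figure D2:**
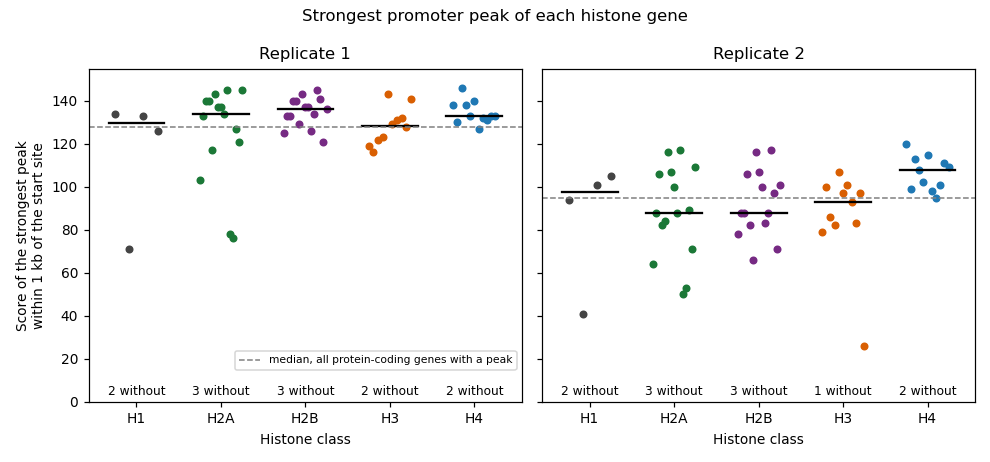
Score of the strongest peak within 1 kb of the start of each histone gene (1 point per gene), by histone class, in replicate 1 (left) and replicate 2 (right); bars are class medians, the dashed line is the median over all protein-coding genes with a peak (128 and 95), and the number of genes without a peak is printed at the foot. Classes overlap in both libraries, and in replicate 2 the H4 genes all sit at or above the dashed line, from 95 to 120.

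The plot of scores by class shows the overlap of the classes and the low values of Hist1h1b, Hist2h2aa1 and Hist2h2aa2. The point at 26 among the H3 genes of replicate 2 is Hist2h3c2.

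For most called genes the strongest shared peak sat upstream of the start. Over the 55 called genes the midpoint of the strongest shared peak had a median offset of -89 bp in replicate 1 (quartiles -131.5 and -53.5), against -36 bp over all 14170 called protein-coding genes (quartiles -89 and 8). Within the 200 bp upstream of the start lay 46 of the 55 (83.6%), against 60.9% of all called genes. The median offset was 5 bp for H1, -116 bp for H2A, -134 bp for H2B, -58.5 bp for H3 and -62 bp for H4. In 9 divergent pairs of an H2A and an H2B gene, the same peak between the starts is counted for both genes. Their offsets are therefore not separate observations, and the spacing of the starts enters the H2A and H2B medians. The 4 called H1 genes lay between -16 and 15 bp and the 11 called H4 genes between -105 and -35 bp. The offsets depend on which start is used. With RefSeq starts, known for 50 of the called genes, the class medians were 5.5, -102, -108, -66.5 and -40 bp in the same order. Where each peak was given to its nearest start only, 52 genes kept a peak and the medians were 5, -112, -86, -58.5 and -62 bp. Under this rule some genes lost their strongest peak to a neighbour, and another peak gave their offset. Offsets then ran up to 807 bp, at Hist1h2bn, so these medians do not describe the same peaks. Of the called genes, Hist1h2bh and Hist2h3b had offsets of -998 and 956 bp, because the strongest peak in their window is nearer to a neighbour's start. The peaks nearest to their own starts lie at -98 and -24 bp.

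The sequences under the strongest shared peak of each class, by mean score percentile over both libraries, are shown because they hold the promoter elements of the family. They are mm10, 5′ to 3′ on the strand of the gene named. For Hist1h1e the peak is printed up to 30 bases past the start. Capitals mark matches on either strand to the CCAAT box, the TATA box TATAAA, the octamer ATTTGCAT, the H1 box AAACACA and the letters GGTCCG. The H1 gene Hist1h1e is chr13:23622529-23622625 on the minus strand, the H2A gene Hist1h2an chr13:21787316-21787465 on the minus strand, which is also the peak of the H2B gene Hist1h2bp, the H3 gene Hist1h3e chr13:23562416-23562565 on the minus strand, and the H4 gene Hist1h4c chr13:23698456-23698605 on the minus strand. The last sequence is the strongest shared peak of a divergent H2A and H2B pair that holds the octamer, chr13:22035656-22035805 on the plus strand.
Hist1h1e: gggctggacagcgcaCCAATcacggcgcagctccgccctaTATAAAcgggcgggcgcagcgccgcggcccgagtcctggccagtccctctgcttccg
Hist1h2an: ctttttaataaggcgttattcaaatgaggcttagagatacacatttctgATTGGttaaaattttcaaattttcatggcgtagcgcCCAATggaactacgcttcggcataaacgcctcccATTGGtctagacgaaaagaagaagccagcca
Hist1h3e: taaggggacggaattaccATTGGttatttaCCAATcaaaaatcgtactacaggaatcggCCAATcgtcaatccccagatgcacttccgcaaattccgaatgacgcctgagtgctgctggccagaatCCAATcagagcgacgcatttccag
Hist1h4c: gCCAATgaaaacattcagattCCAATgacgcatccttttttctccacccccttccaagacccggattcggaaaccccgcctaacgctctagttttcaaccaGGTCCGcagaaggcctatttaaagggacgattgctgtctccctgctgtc
Hist1h2ah and Hist1h2bk: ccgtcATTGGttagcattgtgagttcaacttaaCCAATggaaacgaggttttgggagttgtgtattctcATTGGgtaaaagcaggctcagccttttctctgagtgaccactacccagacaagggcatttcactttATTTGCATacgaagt

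In these 5 peaks the CCAAT box, a site for NF-Y, recurs. The Hist1h1e peak holds it upstream of a TATA box, the Hist1h4c peak holds GGTCCG, and the Hist1h2ah and Hist1h2bk peak holds the octamer near its end, a site for POU factors such as Oct-1.

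Across the family the same elements were counted in RefSeq promoters (GRCm38.p6, 250 bases before to 50 after the start, both strands), which were matched for 62 of the 67 genes. CCAAT occurred in 53 (85.5%), against 42.3% of 17491 protein-coding promoters. By class it was in 6 of 6 H1, 18 of 18 H2A, 16 of 16 H2B, 10 of 10 H3 and 3 of 12 H4 promoters. TATAAA occurred in 35 (56.5%), against 14.8% of all promoters, and in every class, from 4 of 10 H3 to 8 of 12 H4 promoters. The octamer ATTTGCAT occurred in 14 (22.6%), against 1.90%, and these were 7 of 18 H2A and 7 of 16 H2B promoters. The windows of divergent pairs overlap, so the same match can count for both genes, as the octamer does at Hist1h2ah and Hist1h2bk. AAACACA, the H1 box, occurred in 9 promoters against 7.17% of all promoters, and 5 of 6 H1 promoters held it. CGTCCG, taken as the core of the site of the H4 regulator HINFP, was in 2 histone promoters (3.23%, against 9.71%), 1 of them an H4 promoter. A count of this exact string is not a count of all HINFP sites, and other forms were not listed beforehand. The E2F site TTTGGCGC was in none, against 0.726% of all promoters. GGTCCG was added after the H4 sequences had been seen and is a description only: 11 of 12 H4 promoters and 2 of the other histone promoters held it, against 12.0% of all promoters. It differs from CGTCCG in the first letter only, and whether HINFP binds it at these genes was not tested. CCAAT was in 43 of the 50 promoters of called genes and in 10 of the 12 others, TATAAA in 30 of 50 and 5 of 12, the octamer in 12 of 50 and 2 of 12, and the H1 box in 5 of 50 and 4 of 12. A match is a stretch of letters and not a site shown to be bound.

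The family is also rich in CpG. Within 500 bp of the histone starts the median ratio of observed to expected CpG was 0.878, against 0.571 over all protein-coding genes, while the median GC content was 53.7% at histone genes and 55.2% over all. The median gene length was 539 bp, against 17425 bp over all protein-coding genes.

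Hotspots gave a narrower picture than peaks. In both libraries a hotspot covered the start site of 37 of the 67 histone genes (55.2%), against 58.7% of all protein-coding genes, and all 37 were at the cap of 100 on the deposited −log10 q-value scale in both. Within 1 kb of the start, a hotspot was found in both libraries for 55 genes, against 65.5% of all protein-coding genes. For the 18 called genes without a hotspot over the start, the nearest hotspot edge was a median of 47 bp away in each library and at most 333 bp. By class, hotspots lay over the start in 4 of 6 H1, 8 of 18 H2A, 9 of 18 H2B, 6 of 12 H3 and 10 of 13 H4 genes. In the proximal block 7 of 23 starts were covered and in the distal block 22 of 31. The hotspots over histone starts had a median length of 482 bp in each library, against 1218 bp in replicate 1 and 884 bp in replicate 2 over all protein-coding genes with one. The longest, 2233 bp in replicate 1 and 1780 bp in replicate 2, lay at Hist2h4.

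H2A and H2B genes commonly stand head to head, transcribed away from each other from a shared stretch. There were 13 divergent pairs with starts at most 1 kb apart, 12 of an H2A and an H2B gene and 1 of an H2B and an H3 gene (Hist1h2bh and Hist1h3f). Their starts were 176 to 660 bp apart, with a median of 268 bp. A shared peak lay between the starts, with a margin of 200 bp, in 10 pairs, and in 9 of these there was a single one. The peak scored 121 to 145 in replicate 1 and 66 to 117 in replicate 2. Its midpoint stood at a median of 51.1% of the way from the minus-strand gene's start to the plus-strand gene's start. At Hist1h2ag and Hist1h2bj it scored 143 and 116, at 54.1% of a 270 bp interval. At Hist1h2ae and Hist1h2bg it scored 140 and 82, at 17.0% of 176 bp. The pairs without a shared peak were Hist1h2bq with Hist1h2ao, Hist1h2ap with Hist1h2br, and Hist1h2ba with Hist1h2aa. The share over all divergent protein-coding pairs is not given here, so 10 of 13 cannot be called high or low for such pairs.

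The 12 genes without a shared promoter peak fall into 3 kinds by annotation and sequence. Hist1h1t, Hist1h2ba and Hist1h2aa encode testis variants of H1, H2B and H2A that are known from male germ cells. None had a peak of either library within 1 kb, and the nearest hotspot of replicate 1 was 1586 bp from the Hist1h1t start, 4598 bp from that of Hist1h2ba and 4292 bp from that of Hist1h2aa. Their promoters are unique in the genome: none of the 32-base words in the 300 bases around these starts occurs elsewhere in GRCm38.p6.

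RefSeq promoters of this kind are shown because they carry elements of the family without a peak (GRCm38.p6, RefSeq, from 170 bases before to 30 after the start, capitals as above). They are those of Hist1h1t (chr13:23695641-23695840, plus strand) and Hist1h2ba (chr13:23934127-23934326, minus strand).
Hist1h1t: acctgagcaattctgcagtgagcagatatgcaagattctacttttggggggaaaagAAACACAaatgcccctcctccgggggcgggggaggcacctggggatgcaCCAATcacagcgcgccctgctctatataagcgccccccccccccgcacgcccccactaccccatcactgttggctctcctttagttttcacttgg
Hist1h2ba: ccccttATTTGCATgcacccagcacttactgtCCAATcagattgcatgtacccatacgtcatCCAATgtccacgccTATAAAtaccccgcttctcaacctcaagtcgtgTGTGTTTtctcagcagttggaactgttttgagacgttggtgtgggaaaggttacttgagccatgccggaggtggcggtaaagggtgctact

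Hist1h1t holds the H1 box and CCAAT. Hist1h2ba holds the octamer, the CCAAT box, the TATA box and a match to the H1 box in the reverse orientation.

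Hist1h1d, an H1 gene, was not called at its GENCODE start. The GENCODE basic start is 1770 bp upstream of the RefSeq start. A shared peak at chr13:23554956-23555105, scoring 115 in replicate 1 and 67 in replicate 2, has its midpoint 2 bp upstream of the RefSeq start. With RefSeq starts 56 genes were called, the 5 genes with no matched RefSeq promoter being kept at their GENCODE starts. The annotation of the H2B gene Hist1h2be has a like feature, although the gene was called: its outermost start lies 35.2 kb from its coding exon, close to Hist1h1e. Its called peak, 133 and 88, is beside that distant start, and another shared peak (chr13:23585956-23586105, scores 131 and 91) has its midpoint 74 bp upstream of the coding start.

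The other 8 genes without a shared peak have promoters that the genome holds in near-identical copies. They are Hist1h2bq, Hist1h2br, Hist1h2ao, Hist1h2ap, Hist1h4m and Hist1h4n in the proximal block and Hist2h3c1 and Hist2h3c2 in the Hist2 cluster. In each, over 50% of the 32-base words around the start occur more than once in the assembly, and for the 4 H2A and H2B genes the share is 100%. Between the copies, the RefSeq promoters were 99.6% to 100% identical at the best ungapped shift. Reads from such a stretch may match several places, and how the submitters treated them is not given in the sources used here. A missing peak is therefore not a measurement of closed chromatin at these genes.

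The pair on chromosome 3 shows how alike the copies are (GRCm38.p6, RefSeq, same window and capitals). Hist2h3c1 is chr3:96246515-96246714 on the plus strand and Hist2h3c2 is chr3:96239098-96239297 on the minus strand.
Hist2h3c1: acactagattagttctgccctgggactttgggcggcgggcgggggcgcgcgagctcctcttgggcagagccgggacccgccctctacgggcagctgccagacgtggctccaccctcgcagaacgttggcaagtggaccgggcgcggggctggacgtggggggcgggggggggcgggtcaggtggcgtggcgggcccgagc
Hist2h3c2: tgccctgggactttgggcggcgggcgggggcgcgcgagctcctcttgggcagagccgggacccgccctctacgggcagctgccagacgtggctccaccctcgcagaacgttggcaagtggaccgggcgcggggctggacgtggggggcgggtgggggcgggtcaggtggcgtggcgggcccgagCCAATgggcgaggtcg

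The annotated starts of these copies differ, so the same stretch appears shifted by 15 bases, and the CCAAT box falls inside the window of Hist2h3c2 only. Outside the copies the family was nearly complete. Of the 51 histone genes with at most 10% of repeated words, 47 had a shared peak, against 71.8% of 18776 protein-coding genes in the same range. The other 4 were the testis variants and Hist1h1d. With 10 to 50% it was 6 of 6, against 35.3% of 1603 genes, and above 50% it was 2 of 10, against 7.44% of 1559 genes. The 2 called genes above 50% were Hist2h2aa1 and Hist2h2aa2, whose peaks lie at -307 and -314 bp, farther upstream than the strongest peak of any other called H2A gene. In the proximal block the 6 genes in copies lie in chr13:21806612-21837530, a stretch of 30.9 kb with 71.0% repeated words. It has no peak and no hotspot in either library. The nearest peaks end at 21791185 on one side and start at 21848016 on the other.

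**Figure D3:**
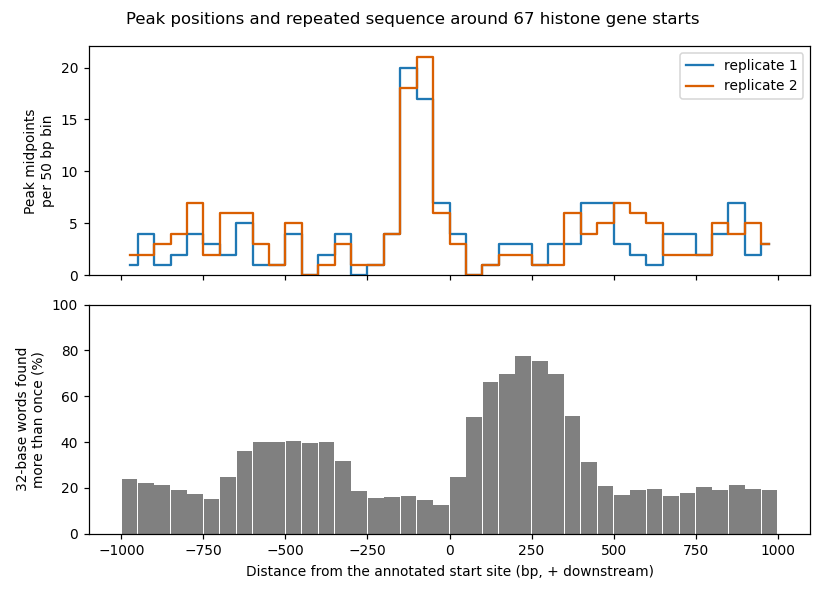
Top, peak midpoints per 50 bp bin around the starts of the 67 histone genes in replicate 1 and replicate 2; bottom, percentage of 32-base words in each bin found more than once in the genome. A peak within 1 kb of more than 1 histone gene counts once for each gene. Midpoints concentrate between -150 and -51 bp, and repeated words peak at 77.7% between 200 and 249 bp past the start.

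Repeated sequence was not confined to the copies, since the coding regions of the family resemble each other. The share of repeated words was 12.7% in the 50 bases before the start and 77.7% between 200 and 249 bp past it, as the profile around the starts shows. Shared peak midpoints numbered 20 between -150 and -101 bp, 17 between -100 and -51 bp and 7 between -50 and -1 bp. A peak within 1 kb of more than 1 histone gene was counted once for each gene, so these are not distinct peaks. Between 50 and 99 bp past the start there was none, and between 200 and 249 bp there were 3. Peaks were also few farther upstream, with none between -450 and -401 bp, where 39.7% of words were repeated. There was 1 between -250 and -201 bp, where 15.7% were repeated, and there were 4 between -350 and -301 bp, where 31.8% were. The part of the repeated words in the scarcity of peaks, upstream or over the coding regions, was not tested.

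The 3′ ends were searched for the stem-loop that SLBP binds on the sense strand, with some positions of its stem and loop left free. It was found in 63 of 67 genes, at a median of 454 bp past the start, and the 4 without a match were Hist2h2be, Hist1h2an, Hist1h3g and Hist1h4a. The commonest form, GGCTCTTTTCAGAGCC, occurred in 41 genes. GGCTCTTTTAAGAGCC occurred in 9 and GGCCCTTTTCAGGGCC in 8. In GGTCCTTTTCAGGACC, which 2 H4 genes carry (Hist1h4b and Hist1h4j), the stem differs from the commonest form on both sides.

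Open sites within 150 bp of the stem-loop were fewer and weaker than those within 1 kb of the start, a wider window. In a narrower window, the 200 bp upstream of the start, lay the strongest shared peaks of 46 of the 55 called genes. A shared peak lay within 150 bp of the stem-loop in 16 genes: 6 H2A, 6 H4, 3 H2B and 1 H1, and no H3 gene. Their median scores were 52 in replicate 1 and 28 in replicate 2. The strongest were at Hist4h4 (126 and 76), Hist1h1e (105 and 63) and Hist1h4j (94 and 49). The Hist1h1e peak, 828 bp past the start of that gene in replicate 1, also lies at -606 bp from the outermost start of Hist1h2be. At Hist1h2ad, where the promoter peak scored 140 and 106, the peak near the stem-loop scored 34 and 25.

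Between the histone genes, the 2 Hist1 blocks differed. Peaks were counted as lying between genes when they were inside a cluster, outside every member and over 1 kb from the start of any member. There were 60 such shared peaks in 633 kb, or 9.48 per 100 kb, against 4.10 per 100 kb over the whole genome. Peaks that overlap each other were counted apart, in the clusters and over the genome. With clusters split at gaps of 100 kb, which leaves out the long gap in each Hist1 block and with it all 31 tRNA genes, the density was 4.12 per 100 kb, close to that of the genome. For the clusters as first defined, tRNA genes included, the density over 1 kb from all annotated starts was 8.68, against 3.10 per 100 kb over the genome. Of the 60 shared peaks, the proximal block held 45 (15.4 per 100 kb), the distal block 12 (3.96 per 100 kb), the Hist2 cluster 1 and the Hist3 cluster 2.

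**Figure D4:**
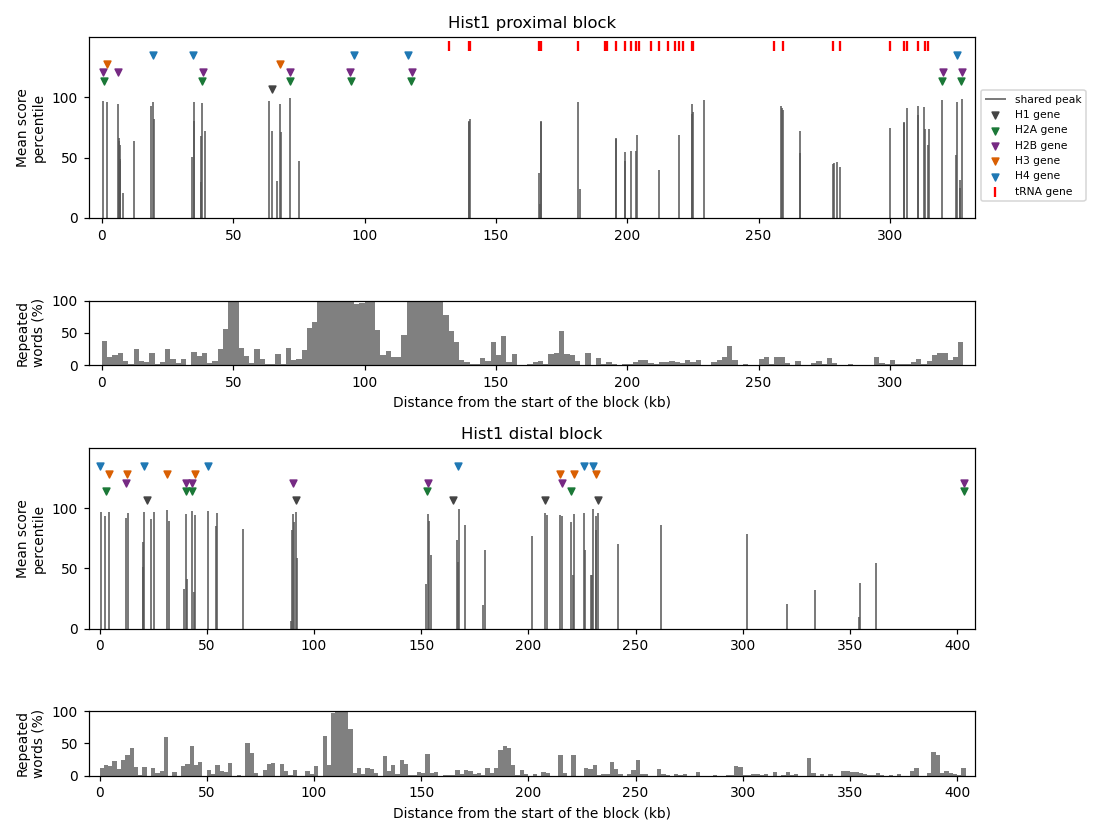
The proximal and distal Hist1 blocks along the distance in kb from the start of each block: shared peaks by mean score percentile over both libraries (lines), histone starts by class (triangles), tRNA genes (red ticks), and below each map the percentage of repeated 32-base words per 2 kb. Peaks stand at most histone starts, tRNA genes and peaks fill the gap in the proximal block, and the stretch around 95 to 118 kb of that block, with 6 histone genes, has repeated words and no peak.

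The proximal block also holds 31 tRNA genes, which RNA polymerase III transcribes from promoters inside the gene, and the map of the Hist1 blocks shows them between the 2 groups of histone genes there. Of the 45 shared peaks between the genes in that block, 30 lay within 250 bp of a tRNA gene. Some of these overlap each other at the same tRNA gene, such as chr13:21855276-21855425 and chr13:21855316-21855465 at n-TIaat11. The peaks therefore outnumber separate sites, also among those with a B box below. Of the 31 tRNA genes, 22 (71.0%) had a shared peak within that distance, against 218 of 377 tRNA genes elsewhere (57.8%). The B box, an internal promoter element of tRNA genes (searched on both strands), was found in 18 of the 60 peaks between genes, all 18 at tRNA genes, and in 0.141% of all shared peaks. None of the 62 histone promoters held it, against 0.166% of all protein-coding promoters. Peaks between genes at tRNA genes had a median percentile, averaged over both libraries, of 76.6, against 65.8 for those away from tRNA genes and 68.1 for all shared peaks.

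The strongest of these with a B box, by the same mean percentile, is shown because it marks the other kind of promoter in the cluster. It lies at chr13:21940836-21940985 (plus strand), overlaps the tRNA gene n-TSaga8, and scored 87 in replicate 1 and 76 in replicate 2. Capitals mark the B box in its reverse orientation.
n-TSaga8: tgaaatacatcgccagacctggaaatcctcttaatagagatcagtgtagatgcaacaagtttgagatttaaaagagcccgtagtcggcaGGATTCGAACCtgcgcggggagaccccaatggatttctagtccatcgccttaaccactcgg

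By mean score percentile over both libraries, the 5 strongest shared peaks between the genes all lie in the proximal block. The first (139 and 111) is 24 bp from the start of Zfp184, a zinc-finger gene inside the cluster. The next (137 and 100) is the peak beyond Hist1h1b described above. The others lie at the tRNA genes n-TItat14 (130 and 102), beside the microRNA gene Mir1983, n-TDgtc12 (119 and 94) and n-TVcac8 (108 and 86). The midpoints of the last 3 are within 100 bp of the tRNA gene. That of the n-TVcac8 peak is also 189 bp from the start of Gm11292, a processed transcript.

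Hotspots covered 8.05% of the proximal block in replicate 1 and 8.44% in replicate 2, and 6.99% and 6.73% of the distal block. In the Hist2 cluster they covered 12.6% and 12.5%. Over the genome they covered 2.99% and 1.54%.

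Genes that make, process and carry these histones had open promoters as well, set against the same 64.6% of all protein-coding genes. All 21 genes of histone mRNA transcription and processing had a shared promoter peak, with median percentiles of 98.8 in replicate 1 and 97.8 in replicate 2. The highest in replicate 1 were Casp8ap2, a component of the histone locus body, with scores of 147 and 119, and the S phase regulator E2f1 with 146 and 123. Npat scored 144 and 115, and the stem-loop binding protein gene Slbp 142 and 106, both named here for their role. All 10 histone chaperone genes were called, led by Rbbp4, a subunit of the chromatin assembly factor CAF-1, with 148 and 127, and Asf1b, an H3 and H4 chaperone, with 147 and 128. Of 13 genes of histones made outside S phase or in single cell types, 11 were called. H3f3b, which encodes H3.3, scored 148 and 119, and H2afz and H2afx followed with 146 in replicate 1 each and 117 and 119 in replicate 2. The 2 without a shared peak were H1foo, the linker histone of oocytes, and Hils1, that of spermatids.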

How the data were processed

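DNase-seq peaks and hotspots of 2 hindbrain replicates were used as deposited on mm10 and were called for each replicate on its own from filtered alignments, per the labels and the deposited notes. Not given in the sources used here: aligner, callers, thresholds, read length and the treatment of reads with several matches. The authors deposited for each peak a score, a whole number of unstated unit that reaches 150, so percentiles within a library were used. For each hotspot the authors deposited a −log10 q-value, from 1.30 to 6 or at a cap of 100. The files hold no read counts, so depth and intervals are not given, and the precision is that of 2 libraries, whose spread may be technical since they share a donor label.

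Peaks were assigned to promoters when the midpoint was at most 1 kb from the start of any GENCODE M21 basic transcript. Peaks were shared with at least 1 bp of overlap, at replicate 1 positions. Offsets use the start nearest to the peak. Clusters were runs of members at most 500 kb apart. Repeated words are 32-base words found more than once on either strand of GRCm38.p6 chromosomes and unplaced scaffolds, a length chosen without knowledge of the reads. Their share at a gene covers 250 bases before to 50 after the start. tRNA genes and promoter sequences are from RefSeq. No test was run: there is 1 group, and counts and medians stand beside those of all protein-coding genes. Any member could be named; of other lists, genes without a shared peak and the 2 with the highest replicate 1 percentile (with ties), and between genes the 5 strongest peaks. Members and lists were chosen with earlier results of these data known. A further marker list is not reported here. Alternatives are given in the closing section. Counting was tested on simulated promoters. Python 3.11.15, NumPy 2.4.6, pandas 2.3.3 and Numba 0.67.0 were used.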

Additional observations from a re-analysis of the deposited data

How the results depend on the processing

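Of 89 values recomputed for 12 results, 84 stayed within the spread between replicates or within 1.5 times the count, and none changed direction. With the window at 500 bp 55 genes had a shared promoter peak, at 2500 bp 59, and with single replicates 55 to 56. The median offset, -84.5 bp as a mean of both libraries (SD 6.36 between them), was -112 bp with a 2500 bp window, -68.25 bp with each peak given to its nearest start only and -70.25 bp with RefSeq starts (GENCODE starts for the 5 genes not matched), an alternative added after seeing the data. The density of shared peaks between genes, 9.48 per 100 kb, was 6.16 with peaks at or above the median score and 4.12 with clusters split at gaps of 100 kb, which leaves out the long gap in each Hist1 block, with all 31 tRNA genes, and is close to the 4.10 of the whole genome. No paired analysis was possible because there is 1 group. Depth is unknown, and with 2 libraries no error beyond their 2 values can be given. Promoters in near-identical copies cannot be read as closed.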

Other observations

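Histone pseudogenes inside and outside the clusters were not members. Hist1h2aj, an H2A pseudogene in the proximal block, had 6 shared peaks within 1 kb, the strongest scoring 126 in replicate 1 and 83 in replicate 2, which is also the peak of the H2B gene Hist1h2bm. Hist3h2bb-ps, in the Hist3 cluster, had 4 shared peaks, the strongest scoring 145 and 109, which is also the peak of Hist3h2a. Hist1h2al, which lies outside the clusters on chromosome 13, had no shared peak and a strongest replicate 1 peak of 46.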
